A study of Mus musculus with 72 samples.

Results

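The genes described here encode the nuclear subunits of the mitochondrial respiratory chain and of ATP synthase. They were taken by symbol, as every gene with a probe set of a single symbol that begins with Ndufa, Ndufb, Ndufc, Ndufs or Ndufv and a digit, with Uqcr, with Cox4 to Cox8 or with Atp5 and a letter, together with Sdha to Sdhd and Cyc1. Measured values entered only where a gene had several probe sets, when the brightest on average was taken. The choice gave 82 of the 19938 genes tested, of which 35 belong by symbol to complex I, 4 to complex II, 9 to complex III, 17 to complex IV and 17 to complex V.

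Complexes I and II pass electrons from NADH and succinate to ubiquinone, complex III passes them on to cytochrome c, and complex IV passes them to oxygen. Complexes I, III and IV pump protons across the inner mitochondrial membrane, and complex V, ATP synthase, lets them flow back to make ATP. Hepatocytes are rich in mitochondria and burn fatty acids through this chain. A few core subunits are made from the mitochondrial genome, and the rest, which include all 82 genes here, are imported from the cytosol.

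The study profiled livers from 4 inbred strains of mice, all male and wild type, 129P2/OlaHsd (129 below), C57BL/6J (B6J), C57BL/6NTac (B6N) and C3HeB/FeJ (C3H). Mice on a high-fat diet (HFD) had received it for 21 days, and controls are labelled as untreated, while the protocol names a low-fat diet (LFD) given for at most 21 days. All mice were housed singly and sampled in the random-fed state. There were 7 HFD and 8 control arrays of 129, 7 and 8 of B6J, 8 and 8 of B6N, and 8 and 18 of C3H. HFD mice of every strain and all 129 controls were 17 weeks old, whereas controls of B6J, B6N and C3H were 15 to 17 weeks old, so that age went partly with diet in those 3 strains. The design asks what the diet does to liver transcripts in each strain and where the strains differ. Nothing in the labels says which samples shared a litter, cage or day, so that a p-value here reflects only how these samples scatter, part of which may be technical.

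Values were log2 probe set signals from Affymetrix Mouse Gene ST arrays, normalised by the authors with RMA. Over the genes tested, array medians lay between 6.86 and 7.02 in 129, between 4.88 and 5.05 over the arrays of both B6 strains, and between 3.38 and 3.57 in C3H. The arrays were therefore read as 3 separately normalised sets, and levels were compared only within 129, within B6 and within C3H. All 10 measured hepatocyte markers lay above the 75th percentile of the array in every group. Pancreatic acinar markers varied widely between arrays of 1 group, and their list mean ran, for example, from 6.51 to 12.3 in 129 HFD livers and from 6.53 to 11.3 in 129 controls. Counted as high in these markers, at over 3 log2 units above the lowest array of the strain, were 13 arrays, with 3 HFD and 2 control arrays from 129, 3 HFD and 2 control arrays from B6J, 1 HFD array from B6N and 2 control arrays from C3H. In addition the B6 arrays and the C3H arrays were each divided into 2 parts by the sign of the first principal component of the residuals. That component held 30.5% of the residual variance in B6 and 27.5% in C3H. Such a cut gives 2 parts in any data, and whether the arrays form distinct groups was not tested. Neither the acinar signal nor the parts were labelled, and both are given beside some of the results they touch. Fewer cells of a type and less RNA per cell cannot be told apart in whole liver.

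Promoter sequence was set beside the gene list, since many nuclear genes of the chain are known targets of the factors NRF1, GABP (an ETS-family factor also called NRF2) and YY1. RefSeq promoter windows of 300 bases, 250 before and 50 after an annotated start (GRCm38.p6), matched 66 of the 82 genes with 71 windows. On either strand, the NRF1 core (GCGCA and GCGC with any 1 base between them) occurred in 17 of the 71 windows (23.9%), against 4.6% of 32851 windows of all genes. The ETS core CCGGAAG likewise occurred in 17 windows (23.9%), against 8.86%, and the YY1 core AAGATGGC occurred in 10 windows (14.1%), against 2.75%. The TATA box letters TATAAA occurred in 12.7% of the subunit windows, against 13.6% of all windows. Subunit windows were also richer in CpG, with a median of 19 CpG against 7 over all windows. Among windows with at least 15 CpG, the shares were 30.9% against 12% for the NRF1 core, 27.3% against 18.9% for the ETS core and 12.7% against 4.67% for the YY1 core, and 9.09% against 4.61% for the TATA box letters. The NRF1 core overlaps CpG sites by its own letters, and a match is a description of sequence, not of binding. The next lines give, 5′ to 3′ and ending at the base before the start, the 250 bases of 1 subunit each from complexes I, II, IV and V, followed by Cox6b1 and Cox6b2, the alternative genes for subunit VIb of complex IV, of which Cox6b2 carried the diet effect described further on. The subunit shown for a complex had the most NRF1, ETS and YY1 cores within these 250 bases, ties going to the first symbol in the alphabet. Complex I was such a tie, with 1 core in each of several genes, and some of its genes hold more over the whole window. Capitals mark the motif letters.
Ndufa11, chr17:56717512-56717761, plus strand: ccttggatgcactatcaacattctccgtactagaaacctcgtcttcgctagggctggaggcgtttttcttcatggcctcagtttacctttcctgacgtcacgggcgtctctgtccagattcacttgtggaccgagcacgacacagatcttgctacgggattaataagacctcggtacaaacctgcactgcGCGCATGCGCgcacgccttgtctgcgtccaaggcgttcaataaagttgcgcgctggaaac
Sdha, chr13:74350241-74350490, minus strand: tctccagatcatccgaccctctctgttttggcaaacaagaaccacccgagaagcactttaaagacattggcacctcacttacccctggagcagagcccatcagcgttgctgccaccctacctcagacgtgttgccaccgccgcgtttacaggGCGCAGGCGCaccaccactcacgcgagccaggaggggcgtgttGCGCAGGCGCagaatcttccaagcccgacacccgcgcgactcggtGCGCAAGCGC
Cox6a1, chr5:115348959-115349208, minus strand: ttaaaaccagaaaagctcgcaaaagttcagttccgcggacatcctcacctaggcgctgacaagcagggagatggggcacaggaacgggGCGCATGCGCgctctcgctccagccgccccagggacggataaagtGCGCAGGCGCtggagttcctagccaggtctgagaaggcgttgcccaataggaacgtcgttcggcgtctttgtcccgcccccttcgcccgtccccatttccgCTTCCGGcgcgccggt
Atp5h, chr11:115419920-115420169, minus strand: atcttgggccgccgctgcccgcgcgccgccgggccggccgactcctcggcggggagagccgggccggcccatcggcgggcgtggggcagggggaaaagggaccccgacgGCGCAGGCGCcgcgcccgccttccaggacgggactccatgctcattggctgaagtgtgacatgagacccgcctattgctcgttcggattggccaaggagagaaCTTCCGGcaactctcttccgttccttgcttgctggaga
Cox6b1, chr7:30626115-30626364, minus strand: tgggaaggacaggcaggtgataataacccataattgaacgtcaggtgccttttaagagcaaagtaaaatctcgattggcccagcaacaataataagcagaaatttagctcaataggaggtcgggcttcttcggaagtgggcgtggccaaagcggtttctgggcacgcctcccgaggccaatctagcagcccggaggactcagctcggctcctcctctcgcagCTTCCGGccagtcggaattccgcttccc
Cox6b2, chr7:4753095-4753344, minus strand: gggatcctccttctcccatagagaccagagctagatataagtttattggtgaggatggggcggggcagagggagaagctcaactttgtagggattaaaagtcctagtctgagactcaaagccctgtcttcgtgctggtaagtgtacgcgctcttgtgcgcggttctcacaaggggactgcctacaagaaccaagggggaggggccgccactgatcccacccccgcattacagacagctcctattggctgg
The Sdha window holds 3 NRF1 cores, first bases at -98, -55 and -10 from the start. Cox6a1 has NRF1 cores at -162 and -117 and an ETS core at -16, and Atp5h, for the stator subunit d of ATP synthase, has an NRF1 core at -141 and an ETS core at -38. Ndufa11 has 1 NRF1 core, at -60. Cox6b1 has an ETS core at -28, whereas none of the 4 motifs is spelled in the 250 bases before Cox6b2, which also hold fewer CpG, 8 against 14. Of the 8 subunits that rank lowest by mean signal over all arrays (Cox4i2, Cox6a2, Cox6b2, Cox7a1, Cox7b2, Cox8b, Cox8c and Ndufa4l2), among which Cox6b2 was well above the median gene in 129, 4 had a window. An NRF1, ETS or YY1 core occurred in 0 of these 4 windows, and the letters TATAAA in 2. Over all windows the shares were 4.6%, 8.86%, 2.75% and 13.6%, and nothing is read from so few windows.

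Most of the subunits gave a strong signal on every set of arrays. Median positions of the 82 genes among all genes of an array, in controls, were at the 95.7th percentile in 129, the 94.99th in B6J, the 95.7th in B6N and the 96.2nd in C3H. Such a position depends on the probes as well as on the transcript, and no order between genes is read from it. Atp5b, the catalytic beta subunit of ATP synthase, lay above the 99.6th percentile in all 8 groups. By complex, the median position in controls ran from 93.0 (complex I) to 98.3 (complex V) in 129 and from 94.1 (complex I) to 98.3 (complex V) in C3H. The exceptions were isoforms known from other tissues. Cox4i2 (lung and hypoxia isoform of subunit IV), Cox8b (muscle isoform of subunit VIII), Cox7b2 and Cox8c (testis isoforms) and Ndufa4l2 (a hypoxia-induced relative of Ndufa4) lay below the median gene in every group. Cox7b2 lay between the 5.6th and 7.8th percentile of the array. Cox6a2 and Cox7a1, the heart and muscle isoforms of subunits VIa and VIIa, lay between the 47.0th and 61.3rd percentile. At such levels signal cannot be told from background without detection calls. Skeletal muscle markers were low too, with at most 2 of 12 above the 75th percentile in any group.

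HFD left the transcripts of the chain close to control levels in all 4 strains. Of 82 subunits 1 was called different in 129 at an adjusted p under 0.05 (limma), Cox6b2, a share of 1.22% against 0.577% of all genes in that contrast. In B6J 0 of 82 were called, against 0.296% of all genes, in B6N 0 against 0.918% and in C3H 0 against 0.853%. The unweighted mean effect of the 4 strains also called 0 of 82, against 3.16% of all genes. At an unadjusted p under 0.05 there were 2 subunits in 129 (2.44%, against 5.48% of all genes), 5 in B6J (6.1%, against 5.78%), 3 in B6N (3.66%, against 5.68%), 2 in C3H (2.44%, against 8.24%) and 5 for the mean effect (6.1%, against 11.1%). In no strain did the HFD and control arrays of any subunit separate without overlap, a pattern that 0.251%, 0.346%, 0.356% and 0.0552% of all genes showed in 129, B6J, B6N and C3H.

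The intervals of these differences left out changes beyond 1.5-fold for most subunits, but not smaller ones. The 95% confidence interval of the diet effect lay within 1.5-fold in either direction for 80 of 82 subunits in 129, where Cox6b2 and Uqcrb were the exceptions, and for 82 of 82 in each of B6J, B6N and C3H. For the mean effect the interval of all 82 lay within 1.25-fold. Estimates beyond 1.25-fold were obtained for Cox6b2 and Uqcrb in 129 and for Ndufa12 in B6J, and for 0 subunits in B6N and C3H. The median residual SD of the subunits, 0.238 log2 units, was close to the 0.247 of all genes above the median level.

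**Figure D1:**
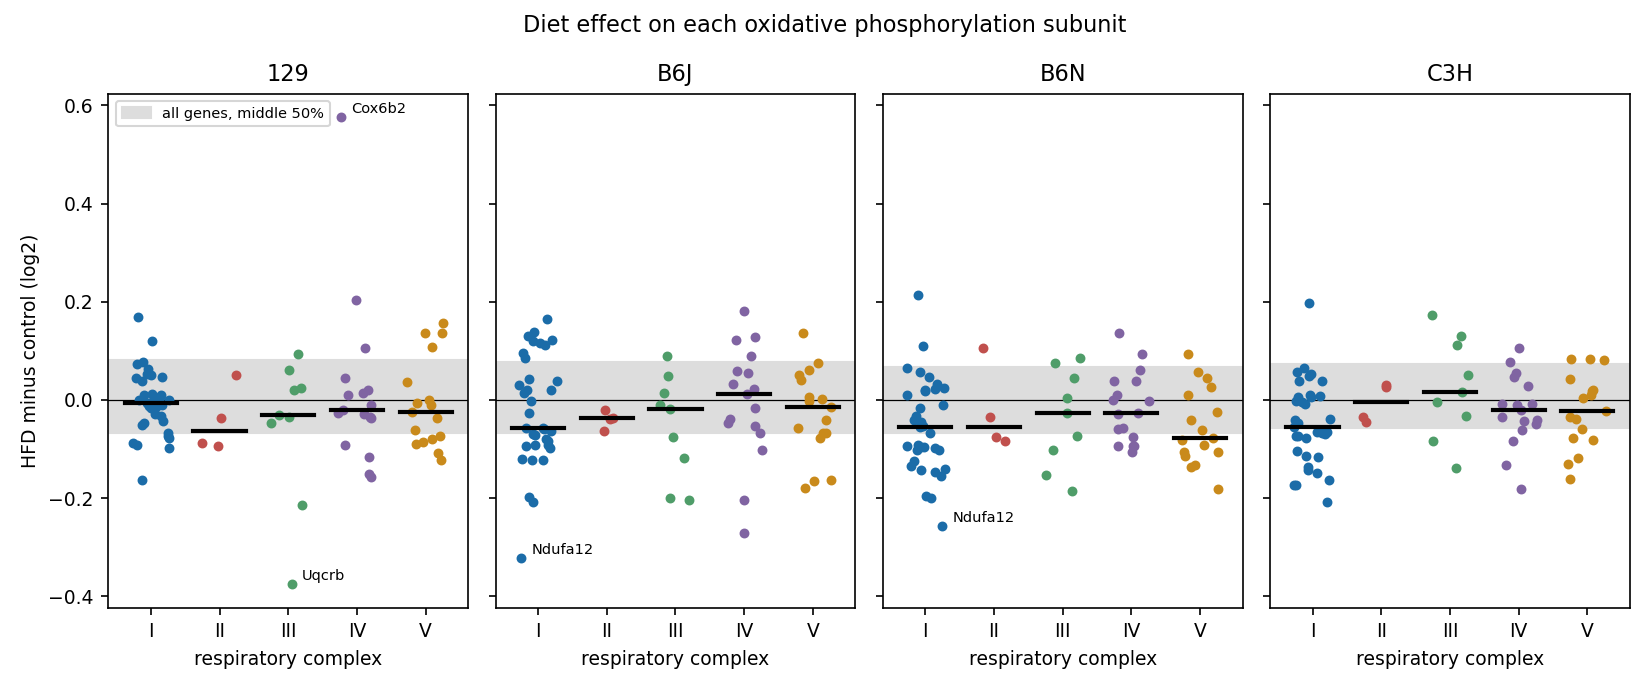
HFD minus control (log2) for each of the 82 subunits, by complex (I to V) in 129, B6J, B6N and C3H; bars are medians of a complex and the grey band is the middle 50% of all genes. Medians of the complexes lie between -0.08 and 0.02 in every strain, and Cox6b2 in 129, at 0.58, stands above all other points.

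The median effect over the subunits was -0.01 (129), -0.02 (B6J), -0.05 (B6N) and -0.03 (C3H) on the log2 scale, and over all genes tested it was 0.003, 0.005, -0.003 and 0.009. Complex medians ranged from -0.06 (complex II) to -0.006 (complex I) in 129, from -0.06 (complex I) to 0.01 (complex IV) in B6J, from -0.08 (complex V) to -0.03 (complex IV) in B6N and from -0.06 (complex I) to 0.02 (complex III) in C3H. For the mean of the strains, 58 of 82 estimates lay below 0, among them 25 of 35 in complex I and 13 of 17 in complex V. Below 0 in all 4 strains were 14 subunits (17.1%, against 8.44% of all genes) and above 0 in all 4 strains was 1, Uqcrq (1.22%, against 10.6%). The shifts were small. Without the 13 high arrays, a selection made after seeing the data, the median turned to 0.05 in 129, 0.06 in B6J and 0.01 for the mean effect, while it was -0.04 in B6N and -0.02 in C3H. Then 33 of 82 mean effects lay below 0. In all 4 strains 6 of 82 subunits were below 0, where 7.69% of all genes were, and 5 were above 0. The part of the acinar signal in these shifts was not tested. Within the 2 parts of the arrays the median of the subunits was -0.009 and -0.11 for B6J livers, 0.02 and -0.11 for B6N livers, and -0.12 and 0.06 for C3H livers, so that its sign differed between the parts in B6N and C3H.

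Array by array, the mean over the 82 subunits showed the same closeness. In 129 it ran from 10.44 over a median of 10.55 to 10.69 in HFD livers and from 10.49 over 10.56 to 10.68 in controls. HFD livers of B6J spanned 8.64, 8.71 and 9.03 (lowest, median, highest), against 8.71, 8.76 and 8.94 in controls. For B6N the HFD values were 8.71, 8.86 and 9.003, against 8.69, 8.90 and 9.04 in controls, and for C3H they were 7.53, 7.74 and 7.95, against 7.59, 7.76 and 8.003. HFD and control arrays overlapped over most of their range in each strain. Subunits tended to vary together from array to array. After group means were removed, the median correlation between 2 subunits over arrays was 0.28 for 129 (15 arrays), 0.27 for B6J (15), 0.23 for B6N (16) and 0.22 for C3H (26). Pairs within a complex had a median of 0.31 in 129 and 0.21 in C3H, and pairs from different complexes 0.27 and 0.22. The subunits of an array share its RNA and hybridisation, and these values are given as a description.

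**Figure D2:**
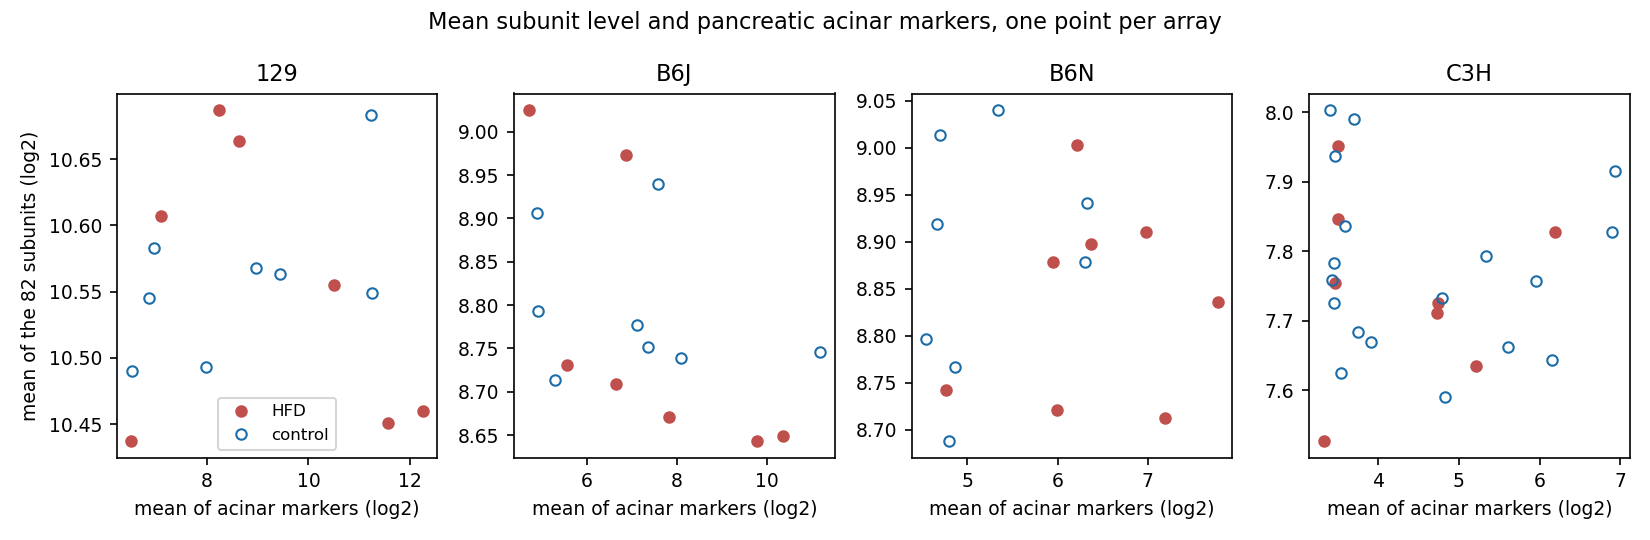
Mean log2 level of the 82 subunits against the mean log2 level of 17 pancreatic acinar markers, 1 point per array, filled for HFD and open for control, in 4 panels by strain with their own scales. HFD and control points overlap on the vertical axis in each strain, and the 3 B6J HFD arrays with the most acinar signal have the 3 lowest subunit means of that strain, 8.64, 8.65 and 8.67. The B6J array with the most acinar signal of all, control replicate 6 at 11.18, has a subunit mean of 8.746. In 129, control replicate 6, with an acinar mean of 11.23, has the highest subunit mean of the controls, 10.68.

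Cox6b2 encodes the testis form of subunit VIb, a small protein on the outer face of complex IV that in other tissues is made from Cox6b1. In 129 it was higher on HFD. The lowest, median and highest values were 8.25, 8.64 and 9.21 in the 7 HFD livers, against 7.90, 8.11 and 8.28 in the 8 controls. Of the 7 HFD arrays 6 lay above every control array, and only the lowest, replicate 3, fell below the highest control. The difference was 0.58 ± 0.09 (log2, SE), 1.49-fold with a 95% interval of 1.31 to 1.70, at an adjusted p of 0.000142 in limma. Its SE draws on the scatter within every group of the 4 strains, while Cox6b2 varied more over the 129 HFD arrays than over the 129 controls. The interval and p-values of that fit may therefore be too tight for 129. Cox6b2 was called with any single 129 array left out, with adjusted p between 1.25e-05 and 0.00119. Without the high-acinar arrays the difference was 0.52 at an adjusted p of 0.0208. In a fit of the 129 arrays alone, where scatter in the other strains does not enter, the adjusted p was 0.0458. Macrophage markers also moved in these livers. Of 14 macrophage and Kupffer cell markers, 6 were called higher on HFD in 129, where 0.577% of all genes were called in either direction. Among the 6, Adgre1 rose by 0.97, Cd5l by 0.79 and Clec4f by 0.44, whereas Lyz2, at 0.30, and Marco, at 0.11, were not called. The mean of the list lay 1.83 to 3.01 above the array median in HFD livers and 1.45 to 2.04 above it in controls. Whether that cell type had a part in the Cox6b2 difference was not tested. The paralog Cox6b1 had values of 11.79, 12.08 and 12.37 in HFD livers of 129 and of 12.03, 12.16 and 12.51 in controls, and was not called.

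In the other strains Cox6b2 did not pass the test, and its signal was near or below the median gene. Its median position on the array was at percentile 43.4 in HFD livers and 44.5 in controls of B6J, 43.1 and 44.7 for B6N, and 51.4 and 51.7 for C3H, and 76.7 and 69.2 for 129, positions within separately normalised sets. The diet effect was -0.07 in B6J, -0.09 in B6N and -0.02 in C3H. The differences of diet effects themselves were -0.67 for B6N minus 129 (adjusted p = 0.0119) and -0.60 for C3H minus 129 (adjusted p = 0.0110). For B6J minus 129 the difference was -0.64 (adjusted p = 0.0700), which did not pass. Cox6b2 was the only subunit called in these contrasts, 1 of 82 where 0.0401% (B6N minus 129) and 0.0602% (C3H minus 129) of all genes were called, and the only one in the F test of any strain difference (adjusted p = 0.00455, 0.125% of all genes called). In B6J minus 129, B6N minus B6J, C3H minus B6J and C3H minus B6N, 0 of 82 were called, where 0.00502%, 0%, 0.0401% and 0.0451% of all genes were, and 1, 1, 2 and 1 subunits had an unadjusted p under 0.05, where 2.93%, 3.05%, 4.3% and 3.77% of all genes did. At that level there were 2 subunits for B6N minus 129 (3.93% of all genes) and 1 for C3H minus 129 (5.1% of all genes). The interactions were less stable than the effect in 129. With a replicate block the adjusted p was 0.113 for B6N minus 129 and 0.197 for C3H minus 129, and without the high-acinar arrays it was 0.196 and 0.151. In fits of only the 2 strains compared it was 0.0516 and 0.141. The F test called 0 of 82 with the replicate block and 0 of 82 without the high-acinar arrays. Cox6b2 was thus compared between sets of arrays on separate scales, and the part of those scales in the differences was not tested.

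**Figure D3:**
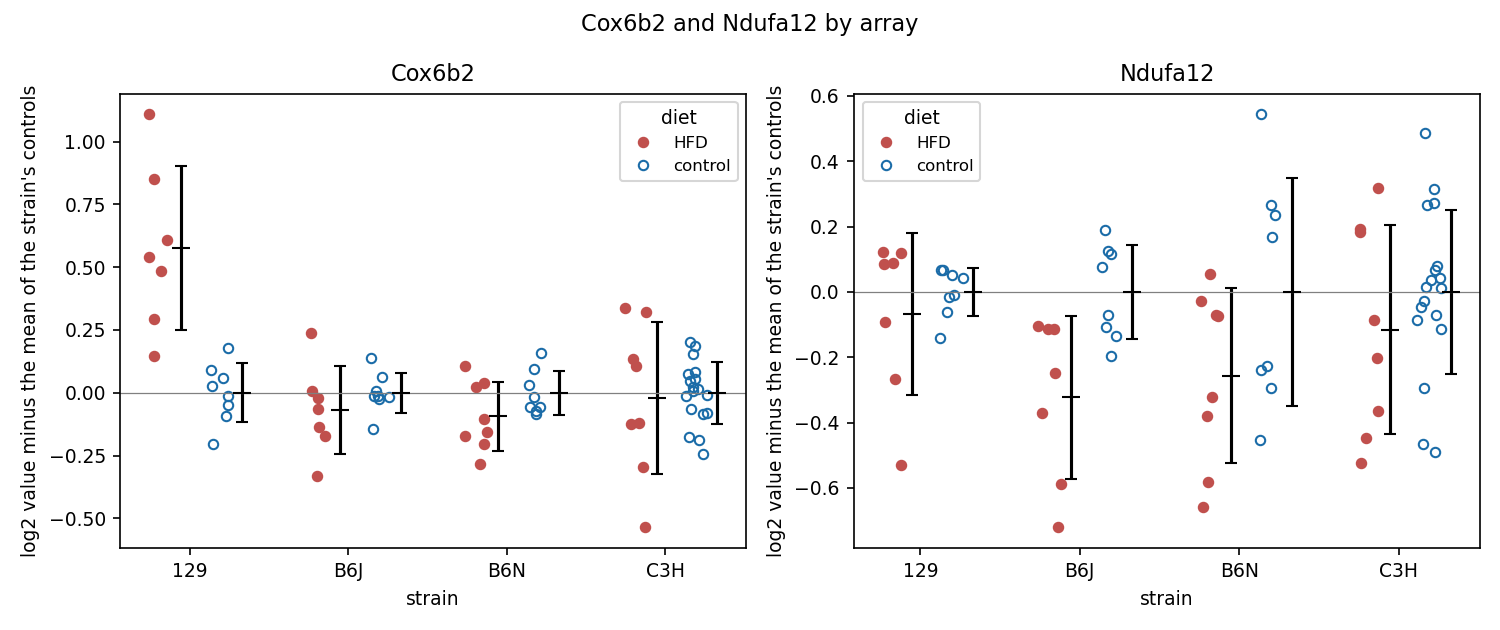
Log2 value of Cox6b2 (left) and Ndufa12 (right) on each array minus the mean of the controls of the strain, with HFD (filled) left of control (open); bars are group mean and SD, with 7 to 18 arrays a group. For Cox6b2 in 129, 6 of 7 HFD arrays lie above all controls; Ndufa12 is low on several HFD arrays of B6J and B6N and overlaps the controls in each strain.

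Among the complex I subunits, Ndufa12, an accessory subunit of the arm that takes up NADH, had the lowest mean effect, -0.19 ± 0.06 at an adjusted p of 0.0721. The B6J values were 8.11, 8.58 and 8.72 (lowest, median, highest) in HFD livers, against 8.63, 8.83 and 9.02 in controls, a difference of -0.32 ± 0.13 (adjusted p = 0.644). B6N livers had 8.31, 8.76 and 9.02 on HFD, against 8.51, 8.93 and 9.51 in controls, a difference of -0.26. In C3H the difference was -0.12 and in 129 it was -0.07, so that all 4 estimates lay below 0, and the arrays of the groups overlapped in each strain. Without 129 HFD replicate 1 the 129 estimate was 0.01. Ndufa12 also differed between the 2 parts of the arrays in some groups. In C3H HFD livers the parts spanned 7.463 to 7.866 and 7.026 to 7.347, and in B6J controls 8.628 to 8.755 and 8.9 to 9.015. In C3H controls, for example, the parts overlapped. The parts held 5 and 2 of the B6J HFD arrays, against 4 and 4 of the controls. With other settings, given in the closing section, the mean effect passed the threshold. Ndufs7, a core subunit that holds the iron-sulfur cluster next to ubiquinone, had a mean effect of -0.12 ± 0.04 (adjusted p = 0.120). Its B6J values were 9.33, 9.53 and 9.70 on HFD, against 9.47, 9.77 and 9.86 in controls, and its C3H values 8.17, 8.58 and 8.92, against 8.42, 8.71 and 9.05. Both pairs of groups overlapped.

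The other subunits of complex I described had estimates of either sign. Ndufa10, an accessory subunit of the membrane arm, differed by 0.21 in B6N, with 9.84, 10.12 and 10.31 in HFD livers against 9.47, 9.95 and 10.02 in controls, and by 0.02 in B6J and -0.07 in 129. Ndufa4l2 differed by -0.20 in B6N and by 0.11 in B6J, at a level below the median gene. Ndufb6, a subunit of the far end of the membrane arm, had effects of -0.16 (129), -0.07 (B6J), -0.16 (B6N) and -0.003 (C3H). Ndufs3, a core subunit, had -0.11 in C3H, with 8.84, 9.37 and 9.74 on HFD against 9.27, 9.41 and 9.72 in controls, and between 0.01 and 0.04 in the other strains. Ndufa4, which is named for complex I and is now known as a subunit of complex IV, had effects between -0.06 and 0.01. None of these passed the test in any strain.

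Succinate dehydrogenase, complex II, which also serves the citric acid cycle, held no called subunit. Sdha, the flavin-bearing catalytic subunit, had effects of 0.05 (129), -0.06 (B6J), 0.10 (B6N) and -0.05 (C3H). Sdhd, one of its membrane anchors, had the lowest mean effect of the 4, -0.06, and its 4 estimates lay between -0.09 and -0.03.

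In complex III, Uqcrc2, a core protein, had effects between -0.01 and 0.04 in the 4 strains. Uqcrb, a subunit near the ubiquinone site, had -0.38 ± 0.17 in 129 (adjusted p = 0.768), from 10.78, 12.36 and 12.74 in HFD livers against 12.34, 12.65 and 12.81 in controls. A single array, HFD replicate 1, gave the lowest value by over 1 log2 unit, and without it the difference was -0.14. Cyc1, cytochrome c1, had -0.20 ± 0.08 in B6J, with 9.74, 9.94 and 10.12 on HFD against 9.88, 10.16 and 10.37 in controls, and between -0.05 and 0.02 elsewhere. Uqcrfs1, the Rieske iron-sulfur protein, had 0.17 ± 0.08 in C3H, with 6.58, 6.92 and 7.11 on HFD against 6.28, 6.72 and 7.27 in controls, and -0.10 in B6N. The groups overlapped in each case, and none was called.

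In complex IV, Cox6c, a small structural subunit, had effects of -0.01 (129), 0.09 (B6J), -0.09 (B6N) and -0.18 (C3H). Cox7a2l, which links complexes III and IV into supercomplexes, had effects of 0.20 (129), 0.18 (B6J), -0.11 (B6N) and -0.06 (C3H). Cox7a1 had -0.27 ± 0.13 in B6J (adjusted p = 0.851), where HFD livers had 4.69, 4.83 and 5.33 and controls 4.79, 5.19 and 5.28. Cox4i2 had -0.15 in 129 and Cox6a2 effects between -0.13 and 0.14. Cox7b2, Cox8b and Cox8c had effects between -0.04 and 0.13, near background. None of these passed the test.

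In ATP synthase, Atp5b had effects of -0.06 (129), -0.17 (B6J), 0.01 (B6N) and 0.02 (C3H). Its B6J values were 11.98, 12.17 and 12.35 on HFD, against 12.16, 12.38 and 12.45 in controls, which overlapped (adjusted p = 0.800). Atp5g1, one of the genes for the c ring that turns in the membrane, had the lowest mean effect of the complex, -0.12 ± 0.05 (adjusted p = 0.202), with -0.18 in both B6J and B6N. Atp5pb, the stator subunit b, had effects between -0.14 and -0.03. Atp5c1, the central stalk subunit gamma, had -0.12 in C3H and 0.05 in B6J, and Atp5h had -0.16 in C3H and 0.0008 in B6J. Where a gene had several probe sets, which held for 16 subunits with 24 further probe sets, these gave diet effects that differed from those of the probe set used by a median of 0.024, and at most by 0.166.

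The B6 strains were compared at each diet, since their arrays were read from the array medians as sharing a scale. That they were normalised together is not stated. B6J carries a partial deletion of Nnt, the mitochondrial transhydrogenase, that B6N does not carry. In HFD livers 0 of 82 subunits were called between B6N and B6J, against 0.191% of all genes, and in control livers 0, against 0.0351%. At an unadjusted p under 0.05 there were 3 in HFD livers (3.66%, against 6.14% of all genes) and 2 in controls (2.44%, against 6.85%). The 2 groups overlapped for each subunit at each diet, and 0.14% and 0.0602% of all genes showed groups without overlap in HFD and control livers. The estimates leaned towards B6N. Above 0 were 61 of 82 subunits in HFD livers and 64 of 82 in controls, with medians of 0.08 and 0.09, where the medians of all genes were 0.005 and 0.02. Complex I had medians of 0.08 in HFD livers and 0.11 in controls, and complex II 0.02 and -0.05. In controls the largest estimates were 0.33 ± 0.09 for Ndufa4l2, which is near background, and 0.32 ± 0.13 for Ndufb2, an accessory subunit of the membrane arm (adjusted p = 0.414 and 0.702). Acinar signal differed between these strains, with a list mean of 4.77 to 7.77 in B6N HFD livers against 4.71 to 10.4 in B6J HFD livers, and 4.54 to 6.32 in B6N controls against 4.89 to 11.2 in B6J controls. Without the high-acinar arrays the median was -0.02 in HFD livers, where 38 of 82 lay above 0, and 0.07 in controls, where 62 of 82 did. Within the 2 parts of the arrays the medians were 0.12 and 0.10 in HFD livers and 0.10 and 0.09 in controls.

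**Figure D4:**
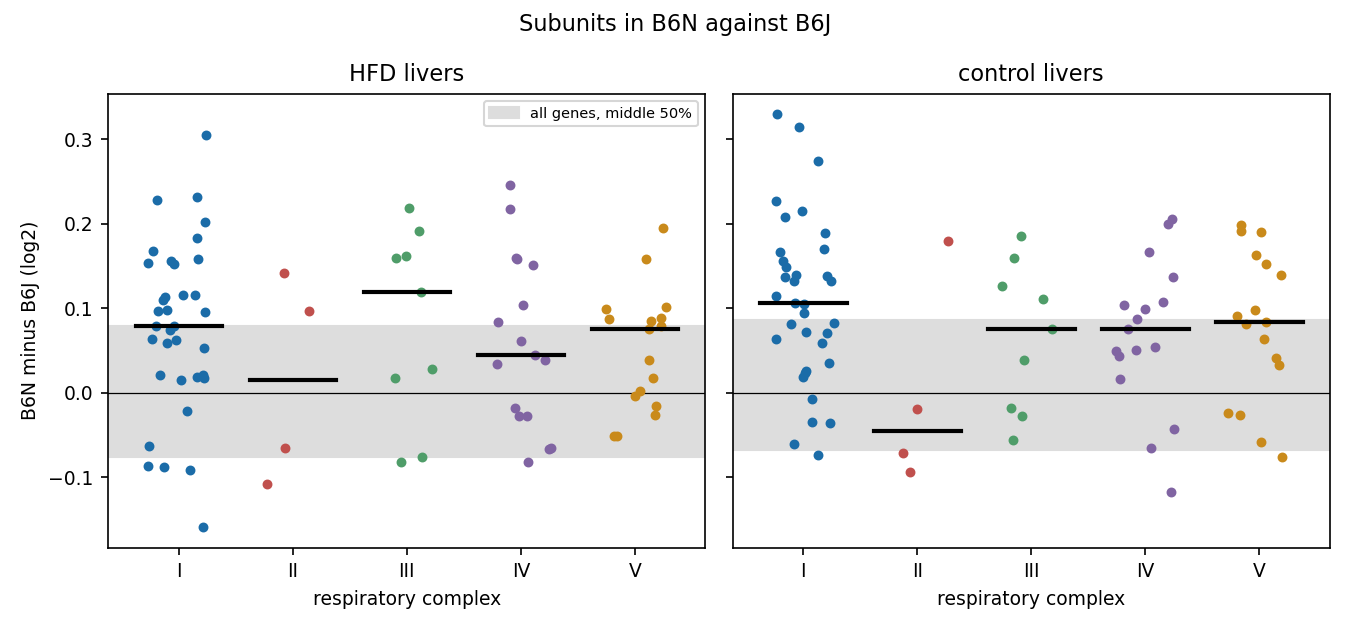
B6N minus B6J (log2) for each subunit by complex in HFD livers (left) and control livers (right), with complex medians as bars and the middle 50% of all genes in grey. Most points lie above 0, and all lie between -0.16 and 0.33.

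Genes that work around the chain were examined beside these values. The lists were chosen with earlier results of these data known, so that their counts and medians are given only as descriptions. Of 22 measured genes of fatty acid oxidation and PPARalpha targets, 20 rose on HFD in the mean effect and 0 fell. In that contrast 3.16% of all genes were called in either direction. The list median was 0.42 on the log2 scale, where all genes had 0.002. By strain 4 rose in 129, 3 rose in B6J, 17 rose in B6N and 14 rose in C3H. The shares of all genes called in either direction were 0.577%, 0.296%, 0.918% and 0.853%. Among them Vnn1, a pantetheinase, rose by 2.03 ± 0.12, Cyp4a14, a fatty acid hydroxylase, by 2.22 ± 0.23, and Bdh1, which makes the ketone body beta-hydroxybutyrate, by 0.53 ± 0.05. Ppara itself, the receptor that drives this program, rose by 0.50 ± 0.08. It was the only 1 of 23 regulators of mitochondrial biogenesis called for the mean effect, beside 3.16% of all genes, and nothing about that list is read from the count. Nrf1, which encodes the factor of the promoter motif, had -0.10 ± 0.05 (adjusted p = 0.406).

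Enzymes and carriers that feed electrons or substrates into mitochondria also held called genes, given here for the mean effect, in which 3.16% of all genes were called. Gpd2, the mitochondrial glycerol-3-phosphate dehydrogenase that reduces ubiquinone, rose by 0.65 ± 0.08, and Nnt rose by 0.31 ± 0.09, while Coq8a, needed for ubiquinone synthesis, fell by 0.30 on the log2 scale. These were the 3 called of 18 electron carriers and ubiquinone genes. In the citric acid cycle and pyruvate list 2 of 22 rose, Suclg1 (a subunit of succinyl-CoA ligase) by 0.22 ± 0.04 and Pcx (pyruvate carboxylase) by 0.38 ± 0.11. Of 15 mitochondrial carriers 3 rose, Slc25a47 by 0.79 ± 0.09, Slc25a20, the carnitine carrier, by 0.42 ± 0.05 and Slc25a30 by 0.85 ± 0.14, and 0 fell.

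Genes that build the chain were examined in the same way. Of 14 complex I assembly factors and 31 assembly factors of complexes II to V, 0 were called in any strain or in the mean effect, with list medians of 0.02 and -0.003 for the mean effect. Of 77 mitochondrial ribosomal proteins 1 was called, Mrpl15, which fell by 0.16 on the log2 scale, in the mean effect. These counts stand beside 3.16% of all genes called for the mean effect, and nothing particular to the lists is read from them. Protein genes of the mitochondrial genome had no single-symbol probe set in the table used and were not analysed here.

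**Figure D5:**
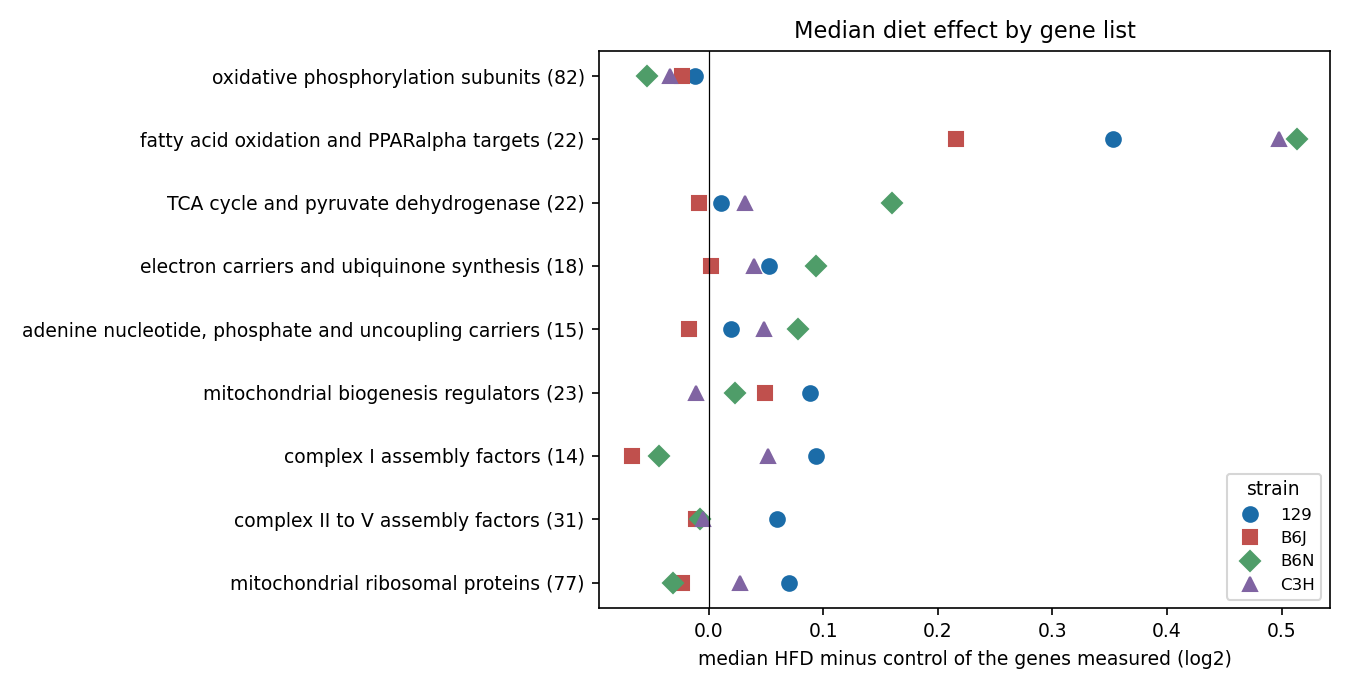
Median HFD minus control (log2) of the subunits and of 8 related gene lists, 1 symbol per strain (129, B6J, B6N, C3H), with the number of genes measured in brackets. The subunits lie between -0.05 and -0.01 in the 4 strains, and the fatty acid oxidation list lies between 0.22 and 0.51.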

How the data were processed

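RNA from 72 livers was measured on Mouse Gene ST arrays of Affymetrix. The values used are the authors' deposited log2 signals, 1 per probe set. According to the submitters' processing notes they come from RMA in Expression Console 1.1. It is not stated whether all arrays were normalised together. The 3 ranges of array medians are read as separate runs, so no log2 level was compared across them, and positions within an array are given side by side only. Of 35556 probe sets, 21789 had 1 gene symbol, 1621 several and 12146 none in the platform annotation. Symbols were updated through Entrez identifiers (21698 matched), and 19938 genes were tested, each by its probe set with the highest mean.

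limma 3.58.1 (R 4.3.3) was fitted to all 72 arrays with 1 mean per group (8 groups), eBayes moderation, two-sided tests and p-values adjusted by Benjamini and Hochberg's method across the 19938 genes. Calls required an adjusted p under 0.05, and every adjusted p in the text is from limma. The fit was tested on simulated data. Errors are SE for differences. Members, gene lists and tests were chosen with earlier results of these data known. Genes were named where called, where among the 5 smallest p in a strain, where strongest in signal or effect in a complex, or as tissue isoforms; of related lists, at most the 3 with the smallest adjusted p. Cox6b1, Ndufb2, Uqcrq, Ndufa11, Cox6a1 and the macrophage markers given with values were singled out after their values were seen.

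Replicate numbers were checked for pairing by correlating deviations from the group means over genes between HFD and control arrays of the same number. All 8 pairs of B6N had r over 0.1 (0.101 to 0.462), against 6 of 7 in 129, 5 of 7 in B6J and 1 of 8 in C3H. The control array of the same number was the best match for 2 of 8 HFD arrays in B6N. That held for 1 of 7 in 129, 2 of 7 in B6J and 0 of 8 in C3H. In B6N, arrays of the same number also fell in the same part along the first principal component. The check therefore cannot settle whether the numbers pair the samples. The B6N count of called subunits was 0 with and without the block. Alternatives tried were a replicate block, fits of the compared strains alone, array weights, other normalisations, filters and probe set rules, an acinar covariate, robust moderation and leaving out each array. Arrays give no read depth, and their number limits the precision. Promoter windows were those of RefSeq (GRCm38.p6); a gene without a window is named only.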

Additional observations from a re-analysis of the deposited data

Results flagged for a closer look

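For each named subunit, arrays that stood apart from the others of their group by Dixon's 95% criterion were listed in groups of 4 to 10 arrays. Of 196 groups tested 18 held such an array, and chance alone gives about 1 in 20. Of these, 9 came from control replicate 6 of 129, which also had a high acinar mean, 11.23. Control replicate 4 of 129 had a similar acinar mean, 11.26, and stood apart for none of the named subunits. Whether the acinar signal had a part in the values of replicate 6 was not tested. On replicate 6 Atp5b had 13.013, against 13.263 to 13.361 on the other 129 controls. Cyc1 had 11.237, Ndufa10 11.33, Ndufs3 11.025 and Sdha 11.713, and all of these values were the lowest of their group. Cox7a2l had 9.072, Ndufa4 11.525, Ndufa4l2 6.786 and Sdhd 11.468, each the highest.

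Other arrays stood apart for 1 or 2 subunits. Uqcrb had 10.775 on HFD replicate 1 of 129, where the other HFD arrays lay between 12.077 and 12.744. Cox8b had 7.692 on HFD replicate 6 of 129 and 7.029 on control replicate 5, each the highest of its group. On control replicate 7 of 129, Cox7b2 had 4.686, the highest, and Uqcrfs1 9.007, the lowest. B6J HFD replicate 5 had the highest Cox7a1, 5.331, and Cox8c, 4.186. In B6N, Sdha was lowest on HFD replicate 2, at 11.036, and Ndufa10 on control replicate 6, at 9.474.

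The diet effect on Cox6b2 differed between strains by the test of the difference itself, with -0.67 for B6N minus 129 and -0.597 for C3H minus 129. The difference for B6J minus 129 did not pass. Neither of those that passed did so under every setting tried, as given in the next section.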

How the results depend on the processing

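No result reversed its direction among called values. The Cox6b2 call in 129 held under each of the settings tried, with the lowest estimate, 0.4878, without HFD replicate 1. The count of called subunits for the mean effect was 1 (Ndufa12, lower) with a replicate block (adjusted p = 0.0202), with genes above the median level only (0.0470) and with the array part as a block (0.00820), and 2 (Ndufa12 and Ndufs7) with array weights. The count for B6J minus 129 was 1 (Cox6b2) with array weights, median centring and the mean of the probe sets of a gene. For B6N minus 129 it was 0 with only the strains compared, the replicate block, the acinar covariate and without high-acinar arrays, and for C3H minus 129 it was 0 with the first and second of these and without high-acinar arrays. The F test gave 0 with the replicate block and without high-acinar arrays. B6N minus B6J in HFD livers gave 1 (Ndufc1, 0.45, adjusted p = 0.0485) with array weights. Without high-acinar arrays the complex I median in B6J was 0.0642 and the complex V median of B6N minus B6J in HFD livers -0.1041. With 1 array left out, counts ranged from 0 to 1 for the mean effect, for B6J minus 129 and for C3H minus 129, the last being 0 without 129 HFD replicate 1 (adjusted p = 0.0542). For B6J minus 129 the 1 was Cox6b2, without 129 control replicate 5, 129 HFD replicates 3 or 6, or B6J HFD replicate 6. For the mean effect the 1 was Ndufa12, without B6N control replicate 1, B6N HFD replicate 6, C3H control replicates 11 or 16, or C3H HFD replicate 6. The causes were not tested. Fits of only the strains compared give no mean effect or F test. The number of arrays, and signal near background for the tissue isoforms, limit these values.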
